A study of Mus musculus with 59 samples.

Results

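The F-box protein genes described here were those of the mouse table whose symbols begin with Fbxo, Fbxl or Fbxw followed by a number. Fbxo30, Fbxo31, Fbxo32 and Fbxo40, which are already known for their induction in muscle wasting (atrogenes), were left out. This rule used symbols only and found 73 genes among the 47643 symbols measured, of which 33 were Fbxo, 18 Fbxl and 22 Fbxw genes. Transcript levels had been measured by RNA-seq in 59 muscle libraries of female NCI Ath/nude mice, 4 months old, which lack T cells and carried one of a pair of human melanoma xenografts. The cachectic xenograft (MAST360B) causes muscle loss and the non-cachectic one (MAST552A) does not, so every group, the controls included, carried a tumour. Diaphragms came from mice with the cachectic melanoma after mock injections (n = 10) or intraperitoneal recombinant Fibcd1 (rFibcd1, n = 10), and from mice with the non-cachectic melanoma after mock injections (n = 9) or rFibcd1 (n = 10). The paper's heatmap of these groups gives fewer mice with the cachectic melanoma for either treatment, so its set of samples differs from the one used here. Mock mice received bovine serum albumin in saline. Limb muscles, tibialis anterior and soleus, were sampled with 5 libraries per melanoma each, and their labels give no injection. Each melanoma was a single patient-derived line, so that the difference between the melanomas is a difference between these lines.

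An F-box protein is the exchangeable part of an SCF ubiquitin ligase. The F-box motif binds Skp1, which is carried by the Cul1 scaffold together with the RING protein Rbx1, and the rest of the F-box protein holds the substrate that will be tagged for the proteasome. Fbxw proteins hold it through WD40 repeats, Fbxl proteins through leucine-rich repeats and Fbxo proteins through other domains, such as the sugar-binding domain of the glycoprotein-binding members. In muscle the family is best known for atrogin-1 (Fbxo32), whose induction marks wasting.

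Levels are given as TPM, which corrects for transcript length and library total, and fold changes are on the log2(TPM + 1) scale, which understates the change of members with low TPM. A member was called when limma gave a Benjamini-Hochberg adjusted p under 0.05 over all genes tested. Sequencing depth is unknown, because TPM does not keep it, and 16436 to 19456 genes were above 0 per library. The 10 muscle fibre markers were above 0 in every group, with sums of 42540 to 93860 TPM per library. Mitochondrially encoded transcripts took 38.1% ± 3.18 (SD, n = 10) of all TPM in cachectic mock diaphragms, 47.5% ± 2.97 (SD, n = 9) in non-cachectic ones, 38.8% ± 8.12 against 48.5% ± 1.80 (SD, n = 5 each) in tibialis anterior and 30.5% ± 3.92 against 41.1% ± 1.99 (SD, n = 5 each) in soleus. Libraries also fell into separate states by Pcna-ps2, a pseudogene above 1 TPM in 26 of the 39 diaphragm libraries. It was above 1 TPM in 9 of 10 cachectic and 3 of 9 non-cachectic mock diaphragms, and in limb muscles in every cachectic library and in no non-cachectic one, which leaves this state confounded with the melanoma there (the effects cannot be told apart). In whole muscle, fewer cells of a type and less RNA per cell cannot be told apart either.

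Most of the family was expressed at low to moderate levels. The mean over the 59 libraries was 10 TPM or more for 19 members, 1 to 10 TPM for 28 and under 1 TPM but above 0 for 17, while 9 members were listed at 0 in every library. The most abundant was Fbxw5, a partner of centrosome and actin regulators, at 43.0 TPM, and other abundant members were Fbxo9 (31.9 TPM), Fbxo3 (30.8 TPM), Fbxo6 (30.2 TPM), Fbxw11 (26.6 TPM), Fbxo11 (24.8 TPM) and Fbxo22 (22.6 TPM). The 9 members at 0 were Fbxw15, Fbxw16, Fbxw19, Fbxw20, Fbxw21, Fbxw23, Fbxw24, Fbxw25 and Fbxw27, which belong to a row of Fbxw genes on chromosome 9 known from the oocyte. Their neighbours Fbxw13, Fbxw18, Fbxw22 and Fbxw26 averaged 0.0391, 0.00172, 0.00249 and 0.00152 TPM. These genes resemble one another closely, so reads could be split between them and their values are uncertain. Fbxo43, a meiotic cell cycle inhibitor, and Fbxo15, an embryonic stem cell gene, averaged 0.00141 and 0.00561 TPM. The filter, at least 1 TPM in as many libraries as the smallest group of a fit, was passed by 47 members in diaphragm, 39 in tibialis anterior and 44 in soleus.

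In mock diaphragms, 17 of 47 F-box genes tested were called higher with the cachectic than with the non-cachectic melanoma and 1, Fbxw7, lower. With median-ratio scaling 2 were called higher and 3 lower, where 16.3% of all genes were called. On the deposited scale 33.5% of all 13426 genes tested were called, 30.9% as higher and 2.67% as lower. The median log2 fold change was 0.22 over the members and 0.20 over all genes, so the members moved about as much as all genes did. Among the members called higher, the largest differences were those of Fbxo6 (log2 fold change 0.70, SE 0.13, adjusted p = 0.000169), Fbxo17 (0.45, SE 0.14, adjusted p = 0.011), Fbxw4 (0.41, SE 0.11, adjusted p = 0.00532), Fbxw2 (0.35, SE 0.07, adjusted p = 0.000518) and Fbxw8 (0.35, SE 0.08, adjusted p = 0.00132). The TPM ranges of the groups were apart for Fbxw2 and Fbxw8 only, against 4.07% of all genes tested that were apart in this direction.

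In tibialis anterior 21 of 39 members were called higher and none lower (60.2% of 11105 genes were called, 56.4% as higher and 3.78% as lower; median 0.40 for members and 0.41 for all genes). In soleus 8 of 44 were called higher and 1, Fbxl22, lower (25.1% of 11957 genes were called, 17.5% as higher and 7.54% as lower, with a median of 0.07 for members and 0.09 for all genes). With TPM rescaled to the total without mitochondrial genes, soleus had 4 members called higher and 8 lower, and 31.2% of genes called. Group ranges were apart and higher for 15 members in tibialis anterior, against 49.1% of all genes, and for 7 in soleus, against 14.6%. In soleus 5.4% of all genes were apart and lower, and Fbxl22 was the member among them. Of the 39 members tested in all 3 muscles, 6 were called higher in each (15.4%, against 12.3% of 10914 genes) and none lower in each (0.898% of genes). They were Fbxo6, Fbxo17, Fbxw2, Fbxw4, Fbxw8 and Fbxw11.

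**Figure D1:**
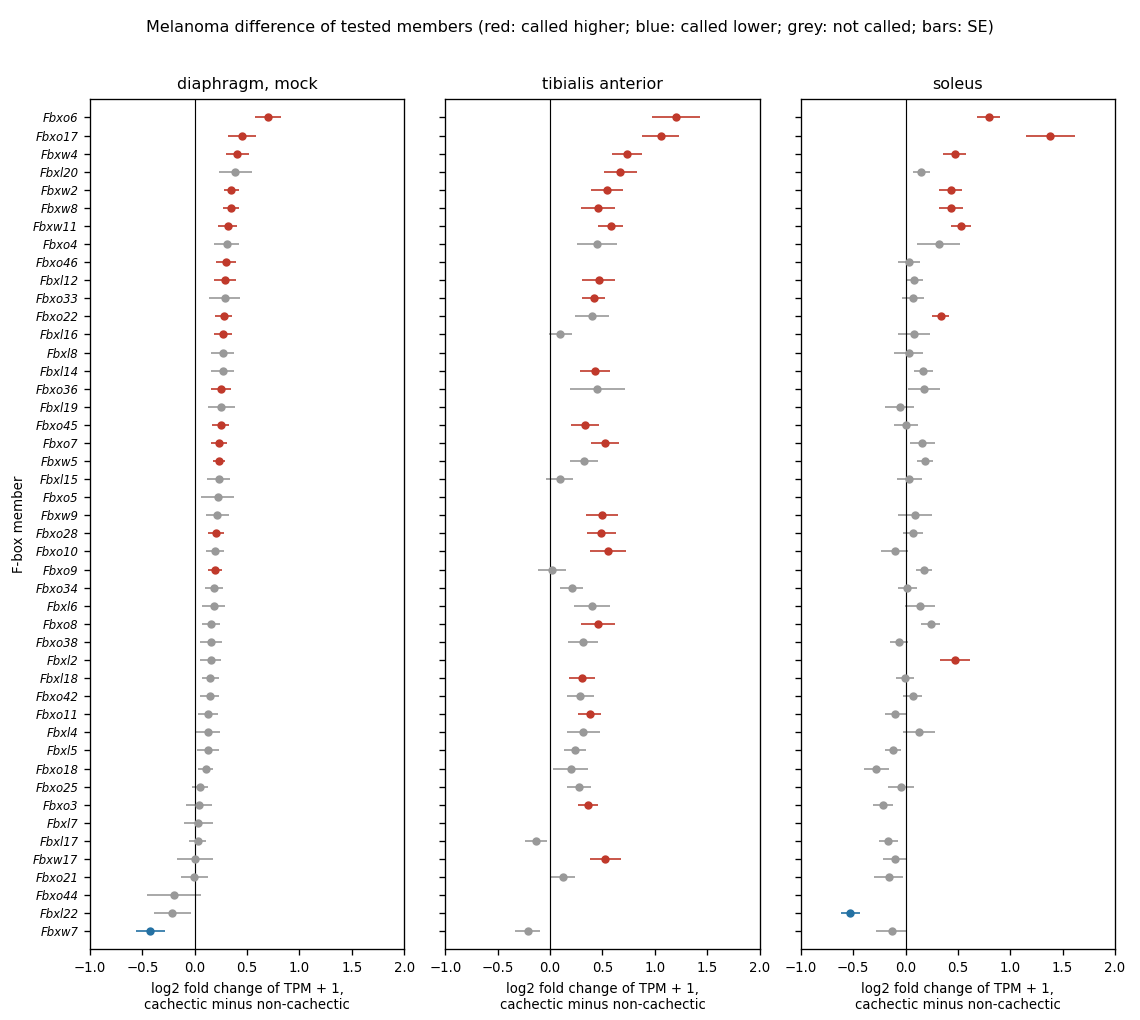
Log2 fold change of TPM + 1 between the cachectic and the non-cachectic melanoma (x axis, bars: SE) for members tested in diaphragm (y axis, 1 member left out, ordered by the mock diaphragm difference), in mock diaphragm, tibialis anterior and soleus. Red points were called higher, blue points lower and grey points were not called, and members that did not pass the filter in a muscle have no point there. Fbxo6 leads in the diaphragm and tibialis anterior panels and Fbxo17 in the soleus panel.

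Fbxo6 recognises misfolded glycoproteins exported from the endoplasmic reticulum and is encoded at chr4:148145716-148152140 (GRCm38, minus strand). Its level in mock diaphragm was 24.4 to 50.1 TPM (median 37.4) with the cachectic and 18.4 to 29.5 TPM (median 20.4) with the non-cachectic melanoma. In tibialis anterior it was 32.6, 42.4, 90.5, 34.5 and 40.8 TPM with the cachectic and 17.7, 21.2, 17.1, 18.8 and 19.4 TPM with the non-cachectic melanoma. In soleus the levels were 32.9, 40.4, 44.6, 30.9 and 34.3 TPM against 19.4, 22.9, 18.1, 22.0 and 20.5 TPM. Every cachectic limb library lay above every non-cachectic one, whereas the diaphragm ranges overlapped. The log2 fold change was 1.20 (SE 0.23, adjusted p = 0.00252) in tibialis anterior and 0.79 (SE 0.11, adjusted p = 0.00069) in soleus. The tibialis anterior library with 90.5 TPM (number 8) also had the lowest mitochondrial share of its group, 25.1%, and the highest sums of satellite cell markers, 78.3 TPM against 20.6 to 28.5 TPM in the others, and of endothelial markers, 224 TPM. Their part in its values was not tested. Without one library at a time the log2 fold change of Fbxo6 in tibialis anterior stayed between 0.95 and 1.32, with a highest adjusted p of 0.00864.

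Fbxo17, a relative of Fbxo6 with the same kind of sugar-binding domain, lies at chr7:28716804-28738144 (plus strand) and was far less abundant. It measured 1.15 to 2.65 TPM (median 1.91) in cachectic and 0.664 to 1.85 TPM (median 1.07) in non-cachectic mock diaphragms. In tibialis anterior its level was 2.38, 3.42, 5.84, 4.26 and 5.36 TPM with the cachectic and 1.33, 1.35, 1.25, 1.57 and 1.77 TPM with the non-cachectic melanoma. In soleus it was 2.33, 4.55, 8.20, 7.36 and 4.82 TPM against 1.01, 1.54, 1.39, 1.25 and 1.51 TPM. The groups were apart in both limb muscles and overlapped in diaphragm. The log2 fold change was 1.06 (SE 0.18, adjusted p = 0.00137) in tibialis anterior and 1.38 (SE 0.23, adjusted p = 0.0021) in soleus.

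Fbxw11 is one of the beta-TrCP proteins, which target beta-catenin and the NF-kappaB inhibitor for destruction. Its level in soleus was 32.8, 38.9, 44.4, 43.3 and 36.3 TPM with the cachectic and 25.4, 24.0, 26.6, 28.5 and 28.8 TPM with the non-cachectic melanoma, with no overlap (log2 fold change 0.53, SE 0.10, adjusted p = 0.00291). In tibialis anterior it was 29.6 to 46.3 TPM against 22.0 to 24.1 TPM (0.58, SE 0.12, adjusted p = 0.00368). In mock diaphragm it was 22.5 to 30.1 TPM against 18.3 to 24.1 TPM (0.31, SE 0.09, adjusted p = 0.00926). Btrc, which encodes the other beta-TrCP protein and does not carry an Fbx symbol, was called lower in soleus (log2 fold change -0.31, SE 0.08, adjusted p = 0.0211) and was not called in mock diaphragm (-0.15, adjusted p = 0.0783) or tibialis anterior (0.12, adjusted p = 0.386).

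Fbxw4, the dactylin gene of limb development, measured 17.2, 17.7, 29.5, 21.5 and 18.0 TPM with the cachectic and 11.4, 11.8, 11.9, 11.6 and 12.4 TPM with the non-cachectic melanoma in tibialis anterior, again without overlap (0.74, SE 0.14, adjusted p = 0.00262). Its soleus levels of 19.6 to 29.4 TPM lay above 14.4 to 17.9 TPM (0.47, SE 0.11, adjusted p = 0.00985). Fbxw8, which works with the scaffold Cul7, was at 27.6, 29.6, 42.7, 32.8 and 27.5 TPM in cachectic and 23.4, 21.4, 23.6, 24.3 and 22.8 TPM in non-cachectic soleus (0.44, SE 0.11, adjusted p = 0.0172). In tibialis anterior it was at 12.01 to 25.8 TPM against 11.1 to 12.3 TPM with overlap (0.46, SE 0.16, adjusted p = 0.0301), and it was no longer called in all 3 muscles without tibialis anterior library 9, 61, 62, 63 or 64 or without the filter. Fbxw2 was at 14.5 to 21.4 TPM in cachectic and 12.1 to 14.3 TPM in non-cachectic mock diaphragm. In limb muscles Fbxw2 differed by 0.54 (SE 0.15, adjusted p = 0.0114) in tibialis anterior and 0.43 (SE 0.11, adjusted p = 0.0138) in soleus. The exons of Fbxw8 and Fbxw4 share 33.4% and 21.4% of their bases with a gene on the opposite strand (Gm9754 and Gm17018). Since the kit is described differently in the sources, reads of those genes may be counted in these values.

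**Figure D2:**
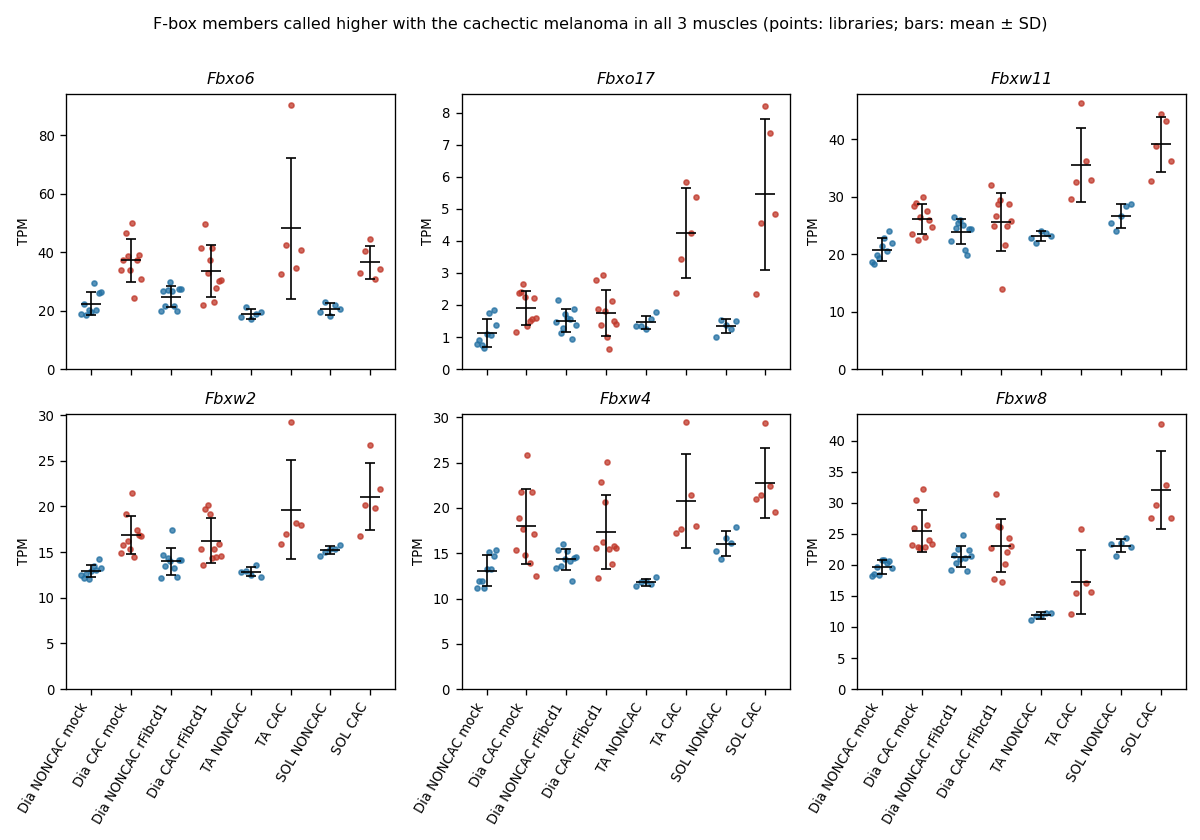
TPM of the 6 members called higher with the cachectic melanoma in all 3 muscles, by library (points) in the 8 groups (x axis; red: cachectic, blue: non-cachectic), with mean ± SD as black bars and the y axis starting at 0. Red points sit above blue points in tibialis anterior and soleus for Fbxo6, with 1 tibialis anterior library at 90.5 TPM, while the rFibcd1 diaphragm groups overlap in every panel.

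The 250 bases before the outermost annotated start are shown for 3 of these 6 genes, because they were called higher together in all 3 muscles. They were taken from RefSeq on GRCm38.p6 and are written 5′ to 3′ along each gene, with matches to the motifs named below in capitals:
Fbxo6, chr4:148152136-148152385, minus strand: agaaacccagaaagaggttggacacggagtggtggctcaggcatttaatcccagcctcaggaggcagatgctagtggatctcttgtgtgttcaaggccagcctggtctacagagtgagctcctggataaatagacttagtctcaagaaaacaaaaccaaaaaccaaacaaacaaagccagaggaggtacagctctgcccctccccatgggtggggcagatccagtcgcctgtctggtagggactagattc
Fbxo17, chr7:28716532-28716781, plus strand: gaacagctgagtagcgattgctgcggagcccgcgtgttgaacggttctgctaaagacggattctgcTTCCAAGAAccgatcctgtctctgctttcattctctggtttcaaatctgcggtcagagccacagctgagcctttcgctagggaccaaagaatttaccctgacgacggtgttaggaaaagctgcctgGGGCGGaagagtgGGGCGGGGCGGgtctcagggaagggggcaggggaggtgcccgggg
Fbxw11, chr11:32642305-32642554, plus strand: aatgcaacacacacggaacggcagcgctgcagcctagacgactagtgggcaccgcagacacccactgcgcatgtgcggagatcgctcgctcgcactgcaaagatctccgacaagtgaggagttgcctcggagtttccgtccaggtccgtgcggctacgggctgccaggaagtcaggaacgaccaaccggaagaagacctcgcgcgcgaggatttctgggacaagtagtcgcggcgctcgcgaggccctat
Both strands were searched, and overlapping matches were counted separately. The RefSeq table held 75 promoter windows for 55 of the 73 members, each of 250 bases before and 50 after a start, beside 32851 promoters in all. The letters of a FoxO site, TGTTTAC, were in none of the 75 windows and in 3.65% of all promoters. A STAT site, TTCNNNGAA, was in 13.3% of the member windows and 8.3% of all, and the interferon-response core in 5.33% and 3.44%. The GC box GGGCGG was in 56.0% of the member windows and 35.7% of all promoters. For the CCAAT box the shares were 29.3% and 37.4%. For the E-box with the palindrome CACGTG they were 6.67% and 7.15%. The printed Fbxo6 and Fbxw11 windows held none of these letters, and that of Fbxo17 held a STAT site and 3 GC boxes. A match of letters is a description of the sequence and not a bound site.

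The size of these differences depended on how libraries were scaled. The summed level of the 73 members was 465 to 591 TPM in cachectic and 404 to 484 TPM in non-cachectic mock diaphragms, while the mitochondrial share was lower with the cachectic melanoma. With TPM rescaled to the total without mitochondrial genes, the same sums averaged 866 ± 53.2 TPM with the cachectic (SD, n = 10) against 855 ± 25.4 TPM with the other melanoma (SD, n = 9). In tibialis anterior they averaged 907 ± 70.0 with the cachectic and 786 ± 16.6 with the non-cachectic melanoma, and in soleus 856 ± 43.5 and 892 ± 21.9 (SD, n = 5 each). Members called on that scale were 1 higher and 1 lower in mock diaphragm, 14 and 2 in tibialis anterior and 4 and 8 in soleus. Of all genes 14.1%, 48.3% and 31.2% were called in the same order. The soleus median log2 fold change there was -0.12 over members and over all genes. With median-ratio scaling, which centres most genes on no change, the median over all genes moved from 0.20 to 0.01 in mock diaphragm and from 0.41 to 0.00089 in tibialis anterior. Calls then numbered 2 higher and 3 lower in mock diaphragm, 5 and 6 in tibialis anterior and 8 and 5 in soleus, in place of 17 and 1, 21 and 0, and 8 and 1. At that scaling 16.3%, 40.7% and 28.3% of all genes tested were called in the 3 muscles. Over all genes the share of calls that were higher went from 92.1% to 45.7%, from 93.7% to 48.6% and from 70.0% to 50.8% in the same order.

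Fbxo6 and Fbxo17 were the members called higher in all 3 muscles with either scaling. With median-ratio scaling the log2 fold changes of Fbxo6 were 0.47 (SE 0.13, adjusted p = 0.00917) in mock diaphragm, 0.74 (SE 0.13, adjusted p = 0.00205) in tibialis anterior and 0.69 (SE 0.11, adjusted p = 0.00148) in soleus. Those of Fbxo17 were 0.32 (SE 0.12, adjusted p = 0.0492), 0.71 (SE 0.12, adjusted p = 0.00163) and 1.30 (SE 0.20, adjusted p = 0.00123). With TPM rescaled to the total without mitochondrial genes, Fbxo6 alone was called higher in all 3 (0.48, 0.99 and 0.57), and Fbxo17 in mock diaphragm had 0.38 (SE 0.16, adjusted p = 0.0924). With the Pcna-ps2 state as a term in the diaphragm fit, Fbxo6 (0.49, adjusted p = 0.00451), Fbxw2 (0.26, adjusted p = 0.0128), Fbxw8 (0.25, adjusted p = 0.0286) and Fbxw5 were called higher and Fbxw7 lower (-0.61, adjusted p = 0.00326). Fbxo17 had 0.21 (SE 0.12, adjusted p = 0.244) in that fit, and its mock diaphragm call was lost in 4 of 9 alternatives, with log2 fold changes down to 0.13 and adjusted p up to 0.597. Among libraries with Pcna-ps2 above 1 TPM limma called no member in mock diaphragm, against 5.69% of all genes. Fbxo6 had an adjusted p of 0.0702 there, the 1 of 9 alternatives in which its mock diaphragm call was lost. Fbxw5 was named after its values were seen.

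**Figure D3:**
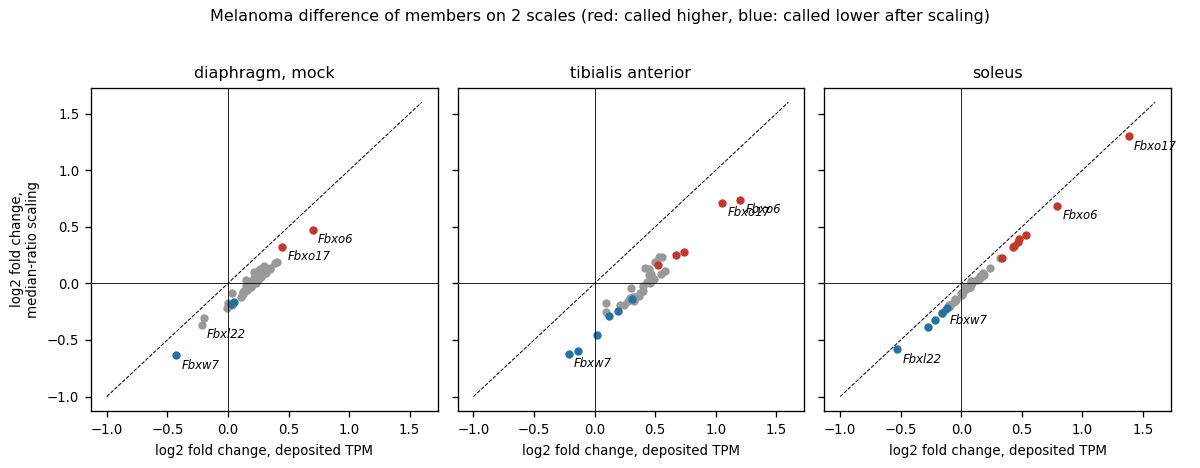
Log2 fold change between the melanomas for the members tested (1 left out), from the deposited TPM (x axis) and after median-ratio scaling (y axis), with 1 panel per muscle (mock diaphragm, tibialis anterior, soleus). The dashed line marks equal values, and red and blue points were called higher and lower after scaling. All points lie under the line in each panel, and Fbxo6 and Fbxo17 stay above 0.

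Among the 5 members of the Fbxo6 family (Fbxo2, Fbxo6, Fbxo17, Fbxo27 and Fbxo44), Fbxo6 and Fbxo17 were called higher in each muscle. Fbxo44 was tested in diaphragm only and differed by -0.20 (SE 0.26, adjusted p = 0.556) between the melanomas in mock mice. Fbxo2 and Fbxo27 stayed under the filter, with highest libraries of 1.06 and 1.02 TPM. The genes are neighbours: on chromosome 4, Fbxo44 lies 660 bases from Fbxo6 on the same strand and 139 bases from Fbxo2, and on chromosome 7, Fbxo27 lies 17466 bases before Fbxo17. Levels differed widely within the chromosome 4 cluster, with Fbxo6 averaging 30.2 TPM, Fbxo44 1.26 TPM and Fbxo2 0.374 TPM over the 59 libraries.

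Of the 5 cell cycle members, 4 were tested in diaphragm. Fbxw7, which targets cyclin E, Myc and Notch, was the member called lower there. It measured 5.52 to 9.02 TPM (median 6.71) in cachectic and 7.88 to 11.9 TPM (median 9.55) in non-cachectic mock diaphragms, so the ranges overlapped (log2 fold change -0.43, SE 0.14, adjusted p = 0.0171). It kept this call with median-ratio scaling (-0.64, SE 0.12, adjusted p = 0.000571) and missed it in Dunn tests (adjusted p = 0.0768) and among libraries with Pcna-ps2 above 1 TPM (adjusted p = 0.0721). The differences in limb muscles were -0.21 (SE 0.12, adjusted p = 0.127) in tibialis anterior and -0.13 (SE 0.15, adjusted p = 0.544) in soleus, and median-ratio scaling gave -0.62 (SE 0.10, adjusted p = 0.00137) and -0.24 (adjusted p = 0.221). Fbxw5 was called higher in mock diaphragm (0.23, adjusted p = 0.00234). On the deposited scale no cell cycle member was called in tibialis anterior or soleus, where 3 were tested.

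Of the iron and mitochondria group, Fbxo7, a mitophagy factor, was called higher in mock diaphragm (0.23, SE 0.07, adjusted p = 0.0166) and tibialis anterior (0.53, SE 0.13, adjusted p = 0.00861). Fbxl5, the iron sensor, and Fbxl4, a mitochondrial protein, were called in none of the 3 muscles on the deposited scale. With median-ratio scaling Fbxl5 was called lower in soleus (-0.22, SE 0.06, adjusted p = 0.0197), as it was with TPM without mitochondrial genes.

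Of the 8 members linked to muscle or growth signalling, 3 were called higher in mock diaphragm, 2 of 6 tested in tibialis anterior, and in soleus 2 were called higher and 1 lower. Over all genes 30.9%, 56.4% and 17.5% were called higher in these muscles, which also stands beside the counts of the other role groups. The last was Fbxl22, an F-box protein of the sarcomere that acts on alpha-actinin and filamin C. Its soleus levels were 0.655, 0.938, 0.619, 0.781 and 0.765 TPM with the cachectic and 1.51, 1.64, 1.25, 1.57 and 1.65 TPM with the non-cachectic melanoma. All cachectic libraries lay below all non-cachectic ones (log2 fold change -0.53, SE 0.09). All 5 cachectic values were under 1 TPM and all 5 non-cachectic ones above it, so Fbxl22 passed the filter only through the group where it was higher, and its soleus values and call are a description that supports nothing further. In mock diaphragm Fbxl22 was at 0.72 to 3.35 TPM against 1.57 to 2.31 TPM (-0.22, SE 0.18, adjusted p = 0.342). Its exons share 8.06% of their bases with Herc1 on the opposite strand.

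Fbxl2, a membrane-anchored F-box protein that acts on a subunit of PI 3-kinase, went the other way in soleus. It was at 3.38, 3.09, 5.70, 4.15 and 3.69 TPM with the cachectic and 2.04, 2.29, 2.59, 2.57 and 3.37 TPM with the non-cachectic melanoma. The groups overlapped through the highest non-cachectic library (0.47, SE 0.14, adjusted p = 0.0334). The exons of Fbxl2 share 11.2% of their bases with Ubp1 on the opposite strand. The call was lost when any of 6 of the 10 libraries was left out (cachectic numbers 8 and 9, non-cachectic numbers 61, 62, 63 and 64), with adjusted p up to 0.0824, without a filter on low values (adjusted p = 0.0647) in Dunn tests (adjusted p = 0.0641) and with TPM without mitochondrial genes (adjusted p = 0.0874). Fbxo9, which acts on growth-factor signalling through the TOR pathway, was called higher in mock diaphragm (0.19, SE 0.06, adjusted p = 0.0221) but reached 0.02 (SE 0.13, adjusted p = 0.908) in tibialis anterior. With median-ratio scaling Fbxo9 was called lower in tibialis anterior (-0.45, SE 0.10, adjusted p = 0.00659).

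In the group of quality control, chromatin and transcription factor regulators, 1 of 8 members was called higher in mock diaphragm, and 3 of 7 were in tibialis anterior and 1 of 8 in soleus. Fbxo22, which acts on histone demethylases, was called in mock diaphragm (0.28, SE 0.08, adjusted p = 0.00893) and soleus (0.33, SE 0.08, adjusted p = 0.00996), and had 0.40 (SE 0.17, adjusted p = 0.0529) in tibialis anterior, while its exons share 15.4% of their bases with Nrg4 on the opposite strand. Fbxl20, a synaptic F-box protein outside these groups, was among the 5 largest differences in tibialis anterior, with 6.57, 8.73, 12.6, 7.67 and 6.93 TPM against 4.70, 4.93, 5.33, 4.75 and 4.44 TPM and no overlap (0.67, SE 0.15, adjusted p = 0.00552). It was not called in mock diaphragm (0.39, SE 0.16, adjusted p = 0.0558) or soleus (0.15, SE 0.08, adjusted p = 0.188). None of the 18 germline and oocyte members passed the filter.

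**Figure D4:**
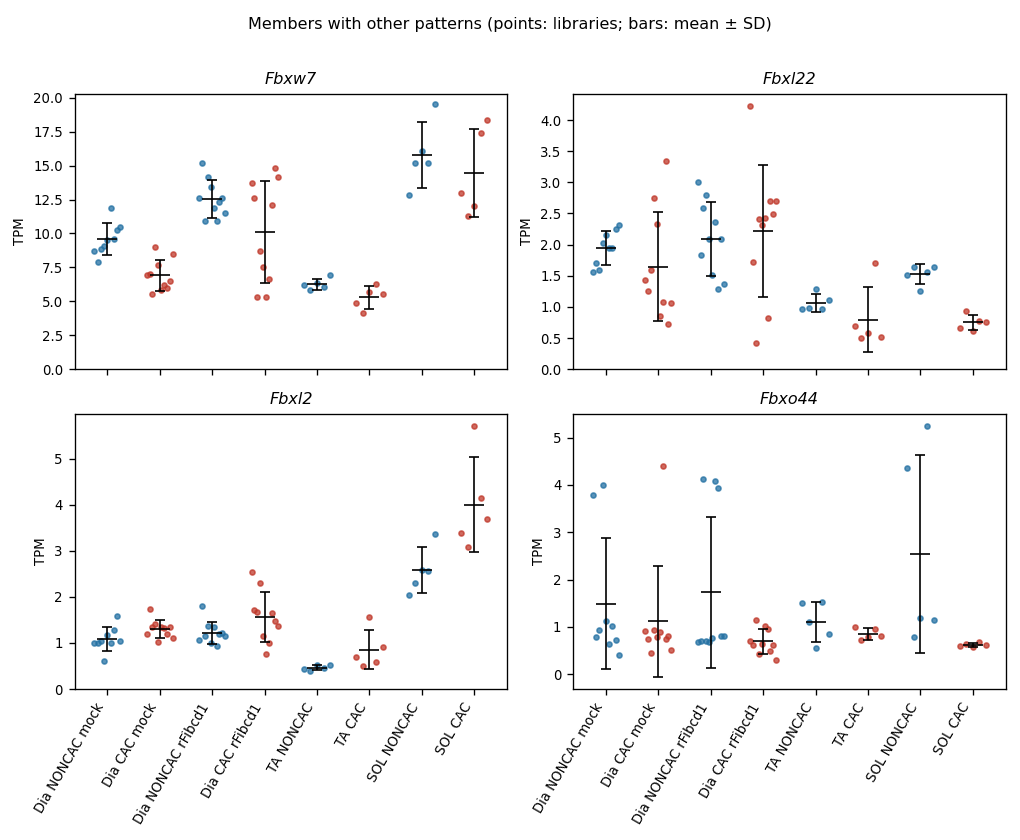
TPM of Fbxw7, Fbxl22, Fbxl2 and Fbxo44 by library (points) in the 8 groups (x axis; red: cachectic, blue: non-cachectic), with mean ± SD as black bars. Cachectic mock diaphragms sit below non-cachectic ones in median for Fbxw7, all cachectic soleus libraries sit below the non-cachectic ones for Fbxl22, and Fbxo44 has 8 libraries at 3.78 to 5.24 TPM apart from the rest.

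Markers of other cell types moved with the melanoma in some muscles. The 6 adipocyte markers summed to 1147 to 5387 TPM in cachectic and 705 to 2344 TPM in non-cachectic mock diaphragms, and in soleus to 702 to 7382 against 892 to 2312 TPM. The 4 satellite cell markers summed to 20.6 to 78.3 against 12.6 to 13.7 TPM in tibialis anterior and to 25.6 to 49.5 against 23.4 to 26.9 TPM in soleus. The 7 leukocyte markers found summed to 19.7 to 107 against 13.7 to 20.8 TPM in soleus and to 18.8 to 73.8 against 47.5 to 203 TPM in tibialis anterior. In tibialis anterior the sum and the single genes differed, since 3 of the 4 leukocyte markers tested were called higher and 1 lower, with a median log2 fold change of 1.61. In mock diaphragm 1 of 6 adipocyte, 2 of 4 satellite cell, 2 of 4 endothelial and 2 of 7 leukocyte markers were called higher and none lower. Other lists are not counted in that sentence. Liver markers summed there to 5.08 to 2330 TPM with the cachectic and 0.551 to 9507 TPM with the non-cachectic melanoma. Schwann and nerve markers summed to 36.9 to 83.3 against 39.2 to 59.8 TPM. None of these markers was at 0 throughout a group. Their part in the differences of the F-box genes was not tested.

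The rFibcd1 comparisons asked whether the injected protein changed these genes in diaphragm. In mice with the cachectic melanoma no member was called in limma (0 of 47, with 5 at an unadjusted p under 0.05; 0.0447% of all genes called), and none in Dunn tests. Among libraries with Pcna-ps2 above 1 TPM the same comparison called 4 members higher, Fbxl17, Fbxo5, Fbxw17 and Fbxw7, and 5.57% of all genes. The lowest adjusted p was that of Fbxw7, which was at 5.30 to 14.9 TPM (median 10.4) with rFibcd1 and 5.52 to 9.02 TPM (median 6.71) with mock (log2 fold change 0.42, SE 0.13, adjusted p = 0.254). In mice with the non-cachectic melanoma no member was called either (8 at an unadjusted p under 0.05; 0.417% of all genes called), and Fbxw7 was at 10.9 to 15.2 TPM with rFibcd1 and 7.88 to 11.9 TPM with mock (0.36, SE 0.14, adjusted p = 0.256). There 46 of 47 members had a positive log2 fold change, with a median of 0.14 beside 0.15 over all genes. The fit of those 2 groups alone called 10 members higher, Fbxw7 and Fbxw11 among them, and 19.6% of all genes. Fbxw7 is named after its values were seen in these comparisons.

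Between the melanomas under rFibcd1, 1 member was called, Fbxo6 (9.11% of all genes called). Its level was 21.9 to 49.8 TPM (median 31.8) with the cachectic and 19.8 to 29.8 TPM (median 26.7) with the non-cachectic melanoma (0.40, SE 0.12, adjusted p = 0.0384). The call was lost without any one of cachectic libraries 1, 3, 4, 5 and 11 or non-cachectic libraries 46, 48, 57 and 58, with adjusted p up to 0.0842, and in 5 of 7 alternatives. With median-ratio scaling Fbxo6 was not called (adjusted p = 0.0945), and Fbxw7 (-0.44, SE 0.12, adjusted p = 0.0176) and Fbxl18 (adjusted p = 0.0493) were called lower. With the Pcna-ps2 state as a term Fbxo6 was called higher (adjusted p = 0.0435) and Fbxw7 lower (-0.43, SE 0.12, adjusted p = 0.0219). The difference between the melanoma effects with rFibcd1 and with mock was called for no member in limma (6 at an unadjusted p under 0.05; 0.0223% of all genes called), and its median was -0.15 over members and -0.11 over all genes. For Fbxo6 the effects were 0.40 with rFibcd1 and 0.70 with mock, which this test does not set apart.

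Levels differed between muscles of mice with the non-cachectic melanoma. Against soleus, tibialis anterior had 2 members higher and 32 lower of 47 (69.5% of all 13501 genes called, 5.63% as higher and 63.9% as lower). Mock diaphragm had 26 higher and 5 lower than tibialis anterior (72.5% of genes called, 64.0% and 8.52%). Against soleus it had 3 higher and 16 lower (38.8% of genes called, 16.8% and 22.1%). With median-ratio scaling these splits became 15 higher and 10 lower, 17 and 24, and 5 and 18 (53.1%, 69.8% and 46.9% of genes called). These counts hold members that entered the joint fit through the muscles where they were higher. Over the 39 members past the filter in the fit of each muscle, the splits were 2 higher and 27 lower for tibialis anterior against soleus (6.03% and 68.3% of 10914 genes), 19 and 5 for diaphragm against tibialis anterior (61.4% and 9.42%), and 2 and 14 for diaphragm against soleus (12.6% and 24.4%). With median-ratio scaling they were 15 and 7 (30.4% and 26.4% of the 10914 genes), 11 and 24 (30.2% and 38.7%), and 4 and 17 (20.3% and 25%). Over all genes the share of calls that were higher went from 8.10% to 48.4%, from 88.3% to 53.2% and from 43.2% to 52.1%, and the all-gene median of tibialis anterior against soleus moved from -0.47 to -0.05. These diaphragms came from mock-injected mice, and the labels of the limb muscles do not say whether their mice were injected, so a part of the injection in comparisons with diaphragm was not tested.

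Fbxl17, which removes mispaired BTB-domain dimers, was the member with the highest level in tibialis anterior relative to the other muscles. It was at 21.7, 18.9, 21.01, 21.3 and 20.1 TPM there, at 13.1, 12.2, 12.7, 15.9 and 14.2 TPM in soleus and at 8.48 to 10.5 TPM in mock diaphragm, with no overlap between the 3 muscles. It was higher in tibialis anterior than in soleus by 0.57 (SE 0.08, adjusted p = 1.1e-07) and lower in diaphragm than in tibialis anterior (log2 fold change -1.02, SE 0.07, adjusted p = 4.26e-15). Fbxo45, which is needed for synapse formation at the neuromuscular junction, was at 17.2, 13.7, 14.5, 17.8 and 15.3 TPM in tibialis anterior and 12.8, 12.1, 11.5, 12.3 and 11.7 TPM in soleus (0.34, SE 0.11, adjusted p = 0.00609). Both genes kept these calls with median-ratio scaling.

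Soleus had the highest levels of Fbxw7, Fbxo21, Fbxl20 and Fbxl2. Fbxw7 was at 6.22, 5.80, 6.32, 6.02 and 6.91 TPM in tibialis anterior and 12.8, 15.2, 16.1, 15.2 and 19.5 TPM in soleus (-1.20, SE 0.12, adjusted p = 3.92e-10). Fbxo21, a ligase component that muscle is known to express, was at 4.72 to 5.52 TPM in tibialis anterior and 9.74 to 12.9 TPM in soleus (-1.04, SE 0.12, adjusted p = 3.45e-09). Fbxl20 and Fbxw8 were lower in tibialis anterior by -1.01 (SE 0.14, adjusted p = 9.75e-08) and -0.91 (SE 0.12, adjusted p = 6.69e-08). Fbxl2 was at 0.444, 0.391, 0.524, 0.447 and 0.5255 TPM in tibialis anterior, against 2.04 to 3.37 TPM in soleus (-1.27, SE 0.13). All 5 tibialis anterior values were under 1 TPM and Fbxl2 did not pass the filter in the fit of that muscle, so it entered the joint fit through the other muscles and its difference is a description. With median-ratio scaling the log2 fold changes of these 5 members were -0.36 to -1.05.

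Diaphragm exceeded tibialis anterior most in Fbxo18, a DNA helicase (0.97, SE 0.11, adjusted p = 8.88e-10), Fbxw17 (0.96, SE 0.10, adjusted p = 6.38e-10), Fbxl12 (0.89, SE 0.09, adjusted p = 3.85e-10) and Fbxo10 (0.82). Fbxl19 differed by 0.83 as a description, since its 5 tibialis anterior values were 0.615 to 0.875 TPM, under the filter, and it entered the joint fit through the other muscles. It was lower in Fbxo45 (-0.33), Fbxl4 (-0.28), Fbxo9 (-0.26) and Fbxw5 (-0.25). Against soleus, diaphragm was higher in Fbxl12 (0.33, SE 0.09, adjusted p = 0.00553) and Fbxl14 (0.28, SE 0.10, adjusted p = 0.0267), and lower in Fbxl2 (-0.78), Fbxo36 (-0.76), Fbxw7 (-0.66), Fbxo9 (-0.56) and Fbxl20 (-0.49). The exons of Fbxl12 share 37.1% of their bases with Ubl5 on the opposite strand, so its level is uncertain. The call of Fbxl4 was lost without tibialis anterior library 63 or 64 (adjusted p = 0.127 at most), and that of Fbxl14 without soleus library 63 or 65 (0.0722 at most).

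**Figure D5:**
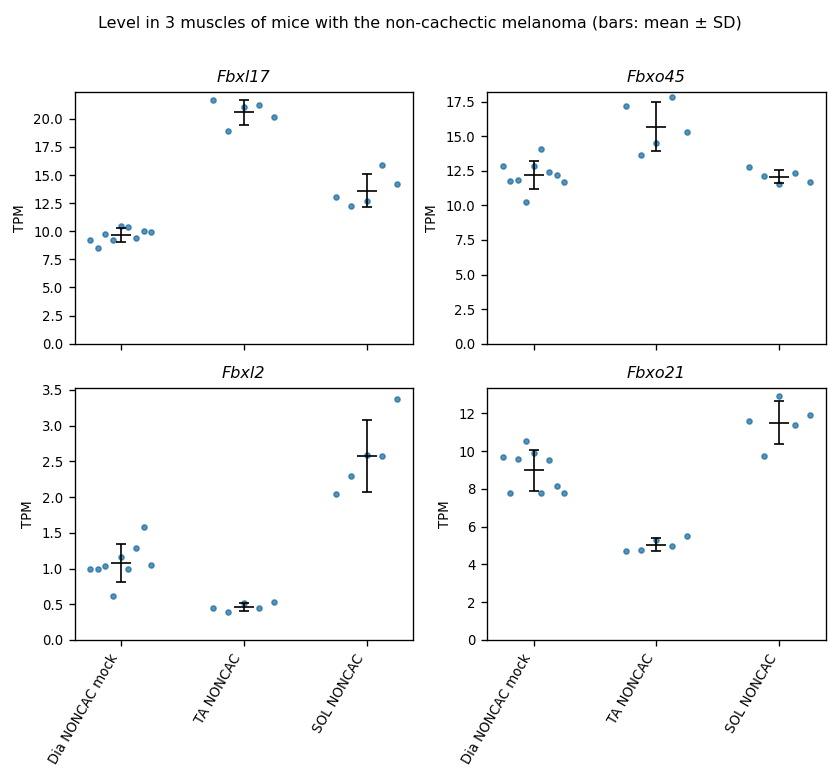
TPM of Fbxl17, Fbxo45, Fbxl2 and Fbxo21 in mock diaphragm, tibialis anterior and soleus of mice with the non-cachectic melanoma (points: libraries; bars: mean ± SD; y axes start at 0). Tibialis anterior is highest for Fbxl17 (18.9 to 21.7 TPM) and soleus is highest for Fbxl2 (2.04 to 3.37 TPM).

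The size of the melanoma difference was compared between muscles directly. It was larger in soleus than in mock diaphragm for Fbxo17, with a difference of log2 fold changes of -0.93 (diaphragm minus soleus, SE 0.25, adjusted p = 0.0321; 2.52% of all genes called). Fbxw17 had a smaller difference in mock diaphragm than in tibialis anterior (-0.52, SE 0.15, adjusted p = 0.0313; 5.04% of genes called). Between tibialis anterior and soleus 7 members were called, all larger in tibialis anterior (20.4% of genes called), in place of which median-ratio scaling gave 2 larger and 3 smaller (Fbxo9, Fbxw8 and Fbxw11). They were led by Fbxo10, which acts on an apoptosis inhibitor (0.66, SE 0.18, adjusted p = 0.0106), and Fbxw17 (0.63, SE 0.17, adjusted p = 0.00951). Fbxw17 itself was at 1.35 to 2.95 TPM in cachectic and 0.87 to 1.43 TPM in non-cachectic tibialis anterior, and at 1.83 to 2.87 against 2.45 to 3.18 TPM in soleus. With median-ratio scaling Fbxo10 and Fbxw17 were called again, and Fbxo3, Fbxo11 and Fbxo18 were not. The call of Fbxw17 against diaphragm was lost without tibialis anterior library 8, 9, 61, 62 or 65 (adjusted p up to 0.103), and that of Fbxo17 without soleus library 8, 9, 61, 63 or 64 (up to 0.0812).

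The partners of these proteins set the background, with all values in this paragraph from the deposited TPM. On that scale the median log2 fold change between the melanomas over all genes was 0.20, 0.41 and 0.09 in mock diaphragm, tibialis anterior and soleus. Partner values under the other scalings are not given here. Of the 4 core SCF subunits, Cul1 was called higher in mock diaphragm (0.28, SE 0.07, adjusted p = 0.00475), tibialis anterior (0.68, SE 0.17, adjusted p = 0.00765) and soleus (0.26, SE 0.08, adjusted p = 0.0388). Skp1a was called in tibialis anterior (0.44, SE 0.12, adjusted p = 0.0106) and not in mock diaphragm (-0.06) or soleus (-0.16), and Rbx1 in none of the 3 (0.17, 0.23 and 0.12). Skp1a was also among the 6 genes of 13426 called for rFibcd1 in cachectic diaphragm (0.24, SE 0.05, adjusted p = 0.0437). Of 23 regulators of NEDD8 and cullin activity, 12 were called higher in mock diaphragm and none lower, and the tibialis anterior and soleus counts were 11 and 7, again with none lower, where 30.9%, 56.4% and 17.5% of all genes tested were called higher in mock diaphragm, tibialis anterior and soleus. Of 7 partner ubiquitin enzymes, 3, 4 and 3 were called higher in the same order, and 2 were called lower in soleus. Of 10 F-box genes with other symbols, 5 were tested in diaphragm and 4 in each limb muscle, with 1, 2 and 1 called higher and 1, Btrc, lower in soleus. Of the 4 atrogenes left out by the rule, Fbxo31 was called higher in all 3 muscles (1.12, 1.85 and 1.07), Fbxo32 in tibialis anterior only (2.32, SE 0.42, adjusted p = 0.00197) and Fbxo40 in soleus only (0.59, SE 0.15, adjusted p = 0.0137), while Fbxo30 was called in none. The melanoma difference of Fbxo32 was larger in tibialis anterior than in soleus by 2.59 (SE 0.62, adjusted p = 0.00459), and diaphragm minus tibialis anterior gave -1.76 (SE 0.54, adjusted p = 0.0494). For Fbxo40, tibialis anterior minus soleus gave -0.60 (SE 0.22, adjusted p = 0.0456) and diaphragm minus soleus -0.52 (SE 0.19, adjusted p = 0.147).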

How the data were processed

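RNA-seq had been run on 59 muscle libraries. Per the study's methods, the authors trimmed paired reads, mapped them to GRCm38 (mm10) in CLC Genomics Workbench and deposited TPM per gene, a level per transcript length and library total; the annotation is not given in the sources used here. Labels and methods name different kits and instruments, so strand is unresolved. Columns were matched to groups by name, and their numbers are not the labels' replicate numbers. Per the study's methods, samples of a group came from separate animals.

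Values were analysed as log2(TPM + 1) with limma 3.58.1 in R 4.3.3 (trended empirical Bayes), with Benjamini-Hochberg adjustment over all genes tested. Genes needed 1 TPM in as many libraries as the smallest group of the fit. The 39 diaphragm libraries, the 10 of tibialis anterior and the 10 of soleus were fitted separately, and the groups without rFibcd1 together for differences between muscles. Code was tested on simulated data. Alternatives were a pseudocount of 0.1, no filter, median-ratio scaling, Dunn tests as in the study, the compared groups alone, a library-number block, fits with the Pcna-ps2 state, each library left out in turn and, added after seeing the data, the state with median-ratio scaling, TPM without mitochondrial genes, muscle comparisons over genes past the filter in each muscle, and the alternatives for calls shared by all 3 muscles. The members and lists were chosen with earlier results of these data known. Genes were named by a rule: the 8 most abundant members, up to 5 called members per direction and comparison with a mean of 1 TPM or more, and examples from role lists; 1 of these genes and its role list are not reported here. Positions and exon overlaps came from GENCODE on GRCm38, matched for all 73 members, and promoters from RefSeq (GRCm38.p6).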

Additional observations from a re-analysis of the deposited data

Results flagged for a closer look

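In 22 of 224 groups of 5, 9 or 10 libraries tested over 28 genes, the highest or lowest library stood apart from the others by Dixon's criterion, where chance gives about 1 in 20 groups. The cachectic tibialis anterior library 8 was highest in its group for Fbxo6 (90.49 TPM), Fbxw2 (29.27 TPM), Fbxo18 (16.51 TPM), Fbxl12 (6.557 TPM) and Fbxo36 (6.016 TPM). Library 9 of that group was highest for Fbxl17 (22.49 TPM) and Fbxl22 (1.708 TPM). In diaphragms of the non-cachectic rFibcd1 group, library 56 was highest for Fbxw2 (17.45 TPM), Fbxl14 (15.55 TPM), Fbxo21 (13.18 TPM) and Fbxl12 (10.28 TPM), library 47 highest for Fbxl2 (1.795 TPM) and library 58 lowest for Fbxl17 (9.228 TPM). Fbxl17 was lowest at 5.225 TPM in library 11 of the cachectic rFibcd1 group. Among cachectic mock diaphragms, library 20 was highest for Fbxl20 (17.35 TPM) and Fbxl4 (10.05 TPM) and library 22 for Fbxo44 (4.405 TPM). In soleus, cachectic library 10 was highest for Fbxo3 (34.33 TPM) and library 8 for Fbxw4 (29.43 TPM), while non-cachectic library 62 was lowest for Fbxo3 (28.8 TPM) and Fbxw5 (39.67 TPM). Fbxo3 was also lowest in non-cachectic tibialis anterior library 62 (26.57 TPM).

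The melanoma difference itself differed between muscles in limma for 8 members, by differences of log2 fold changes past an adjusted p of 0.05. For diaphragm minus tibialis anterior, diaphragm minus soleus and tibialis anterior minus soleus, 2.13%, 2.13% and 14.9% of members were called. Of all 13501 genes 5.04%, 2.52% and 20.4% were called. Fbxw17 had -0.5243 for diaphragm minus tibialis anterior, and Fbxo17 -0.9339 for diaphragm minus soleus. For tibialis anterior minus soleus the values were 0.6586 for Fbxo10, 0.6332 for Fbxw17, 0.5779 for Fbxo3, 0.4747 for Fbxo11, 0.4731 for Fbxo18, 0.42 for Fbxo28 and 0.3579 for Fbxl5. The call of Fbxo18 was lost in 19 of 39 fits that left out 1 library, with adjusted p up to 0.132.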

How the results depend on the processing

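Alternative counts of called members were compared as totals, without direction, and 0 against 0 counted as unchanged. Of 78 such counts, 53 stayed within 1.5 times the value reported and 25 moved. The soleus total stayed within that range although TPM without mitochondrial genes gave 4 higher and 8 lower in place of 8 and 1. No call of a gene named among the largest in its comparison changed direction. Outside those calls, median-ratio scaling turned some values, for example Fbxo9 from 0.19 to -0.03 in mock diaphragm and from 0.02 to -0.45 in tibialis anterior, and Fbxl17 from 0.03 to -0.18 in mock diaphragm. Median-ratio scaling gave 5 in place of 18 members for mock diaphragm, 2, both lower, in place of 1 higher under rFibcd1, 11 in place of 21 in tibialis anterior, 3 and 2 for the differences of diaphragm from tibialis anterior and soleus, and 2 in place of 6 in all 3 muscles. For the single comparisons, in that order, 16.3%, 9.47%, 40.7%, 5.07% and 3.52% of all genes were called. In mock diaphragm the 2 groups alone gave 28, the state term 5, the state term with median-ratio scaling 2, TPM without mitochondrial genes 2 and high-state libraries 0 (18 at an unadjusted p under 0.05). Under rFibcd1 the comparison between melanomas gave 0 without a filter, in Dunn tests, in the 2 groups alone and in high-state libraries, and 2 with the state term. The rFibcd1 effect gave 4 in high-state cachectic libraries (5.57% of all genes called) and 10 in the 2 non-cachectic groups alone (19.6%). Called in all 3 muscles were 3 members with the state term and 1 without mitochondrial genes. The difference of diaphragm from soleus gave 0 with the pseudocount of 0.1 and 2 without a filter. Leaving out 1 library gave 0 to 5 members under rFibcd1 (5 without library 56), 0 to 1 for rFibcd1 in cachectic mice (1 without library 3), 0 to 3 and 0 to 2 for diaphragm against tibialis anterior and soleus, and 5 to 13 for tibialis anterior against soleus (13 without tibialis anterior library 6). The cause was not tested. A replicate block of library numbers gave 4, 3 and 17 members for the differences between muscles in place of 1, 1 and 7. The share of all genes called rose with them, to 17.2%, 7.36% and 41.2% in place of 5.04%, 2.52% and 20.4%. For diaphragm minus soleus the block gave 2 members larger and 1 smaller, in place of 0 and 1. Of 30 same-number pairs 28 correlated above 0.1 (lowest 0.0101) and 25 best with their own number, a hint from the data and not from the design. No paired analysis was possible within a muscle because its groups share no numbers. Depth is unknown, so members near 1 TPM are least certain.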

Other observations

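Fbxo44, the neighbour and relative of Fbxo6, split the libraries. It was at 3.78 to 5.24 TPM in 8 libraries and at 0.309 to 1.52 TPM in the other 51. The 8 were 1 of 10 cachectic mock diaphragms, 2 of 9 non-cachectic mock diaphragms, 3 of 10 non-cachectic rFibcd1 diaphragms and 2 of 5 non-cachectic soleus muscles. All 8 were among the 23 libraries with Pcna-ps2 at or under 1 TPM, and none was among the 36 above it. In the same 8 libraries Fbxo6 was at 19.0 to 24.4 TPM and Fbxo2 at 0.154 to 0.444 TPM, within their ranges of 17.1 to 90.5 TPM and 0 to 1.06 TPM elsewhere.

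Fbxl17 was named here after its values were seen. Its log2 fold changes between the melanomas were 0.03, -0.13 and -0.16 in mock diaphragm, tibialis anterior and soleus and were not called. With median-ratio scaling they were -0.18 (adjusted p = 0.0389), -0.59 (adjusted p = 0.00732) and -0.27 (adjusted p = 0.0393) in limma, and of the 3 scalings tried only this one called it lower in all 3 muscles.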
